A study of Homo sapiens with 12 samples.

Results

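The subject of this account is the set of N4-acetylcytidine (ac4C) sites that lie over a stop codon. A site is a stretch of messenger RNA called as enriched by an antibody against ac4C, and it was taken as a member where the last column of its deposited list gave the stop codon as the transcript part. Of 100763 sites in 6 lists, 13626 were members. They came from NAT10 knockout HK-2 cells (KO, 3 lists) and from wild-type HK-2 cells as the control (WT, 3 lists). The sample labels call the first genotype a knockout and the series text calls it a knockdown. HK-2 is an established human cell line from the renal tubular epithelium, and the labels name no further treatment, clone or batch for either genotype. Each list was called from 1 ac4C immunoprecipitation (IP) library against 1 input library, so the 12 samples gave 6 lists. The labels do not say that replicates were separate cultures, so p-values measure the spread between these lists, which may be technical.

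Acetylation of cytidine at N4 is carried out by NAT10, an acetyltransferase that modifies ribosomal and transfer RNA and has been described on messenger RNA. The stop codon ends the coding sequence, is read by release factors rather than by a transfer RNA, and borders the 3' untranslated region (3' UTR). A site called over a stop codon is an interval of pulled-down fragments much wider than the codon, so it covers the last coding bases, the start of the 3' UTR, or both. It does not show which cytidine carries the mark. Which stop codon is meant depends on the transcript listed beside the site, which can be a short isoform.

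Several facts of the lists bear on every value. They hold no read counts, so the depth behind a site is unknown. Fold enrichment is the authors' ratio of IP over input at a site, and it was at least 2 throughout. The authors' false discovery rate was high: the lowest of any stop codon site was 14.1%, 16.1% and 11.3% in KO lists 1, 2 and 3, and 42.6%, 38.9% and 29.2% in WT lists 1, 2 and 3. KO list 1 was deposited with its coordinate and gene columns in different row orders and was rejoined, which left 14 of its stop codon sites without a gene. Of 26 markers of proximal tubule epithelium, 17 carried a site of some kind in at least 1 list, and 9 to 10 did in any single list. PAX8 had one in both genotypes, LRP2 in WT lists alone, KRT18 in KO lists alone and CUBN in KO list 3 alone. HNF4A, SLC34A1 and AQP1 carried none. Of 32 genes that mark other kidney or blood cells, 4 carried a site in at least 1 list and 2 to 3 in any single list. A missing site does not show a missing transcript. NAT10 itself had 0, 0 and 1 stop codon sites in KO lists and 0, 1 and 0 in WT lists. Its sites of any part numbered 2, 5 and 9 in KO lists 1, 2 and 3 and 11, 11 and 8 in WT lists 1, 2 and 3. THUMPD1, listed with NAT10 as a partner, had 1 stop codon site in each WT list, with folds of 10.15, 14.29 and 12.22. It had no site of any part in KO lists.

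The first question was whether KO lists hold fewer stop codon sites than WT lists. As deposited, they did not separate. There were 1875, 2314 and 2605 stop codon sites in KO lists 1, 2 and 3, against 2374, 2345 and 2113 in WT lists 1, 2 and 3. KO list 1 held the fewest and KO list 3 the most, so the WT lists lay inside the KO range. The means were 2265 ± 367 sites in KO and 2277 ± 143 sites in WT (SD, n = 3 lists each; difference -12.7, exact permutation p = 0.9, adjusted over 4 comparisons p = 1). Without KO list 1 this difference was 182 sites, and without KO list 3 it was -183 sites. With every list cut to the length of the shortest, by score, it was -51.3 sites, and each KO list then lay below each WT list (exact permutation p = 0.1, the smallest that 3 lists against 3 allow).

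Stop codon sites made up 13.6%, 12.9% and 13.6% of the sites in KO lists 1, 2 and 3, and 13.5%, 13.7% and 13.8% in WT lists 1, 2 and 3. KO list 2 lay lowest, and the genotypes overlapped. The difference in this share was -0.311 percentage points (exact permutation p = 0.3, adjusted p = 0.6). It was -0.671 among sites of at least 100 bases and -0.371 at equal list lengths, and in both settings all KO lists lay below all WT lists (exact permutation p = 0.1 each). The sites fell in 1781, 2203 and 2472 genes in KO lists and in 2249, 2208 and 1997 genes in WT lists, a mean of 2152 ± 348 against 2151 ± 135 (SD, n = 3 each; difference 0.667, exact permutation p = 1, adjusted p = 1). Without KO list 1 the difference in genes was 186, and without KO list 3 it was -159. Most of these genes carried a single stop codon site, between 94.9% and 95.6% of them in KO lists and between 94.1% and 94.7% in WT lists.

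**Figure D1:**
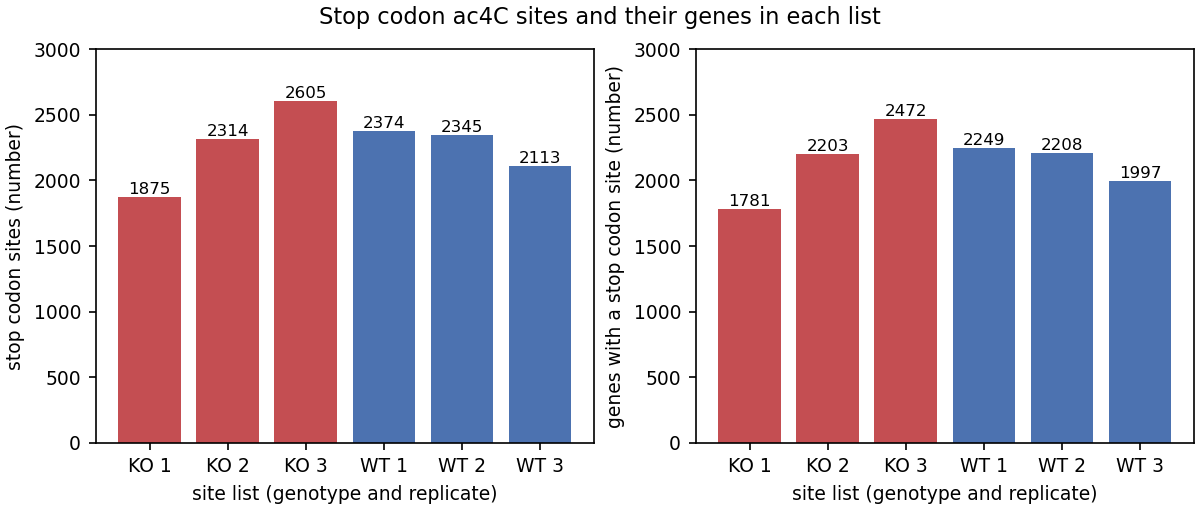
Number of stop codon sites (left) and of genes that carry one (right) in each of the 6 lists, with KO in red and WT in blue. The bars of KO lists span 1875 to 2605 sites and enclose the WT lists, at 2113 to 2374 sites.

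The length of the called interval differed more than its number. The median stop codon site was 371, 354 and 350 bases long in KO lists 1, 2 and 3, against 326.5, 317 and 312 bases in WT lists 1, 2 and 3. Every KO list lay above every WT list. The means were 358 ± 11.2 and 318.5 ± 7.37 bases (SD, n = 3 each), a difference of 39.8 bases. The exact permutation p was 0.1, the smallest that 3 lists against 3 allow, and 0.4 after adjustment over 4 comparisons. Sites shorter than 100 bases were 4.32%, 4.67% and 4.99% of stop codon sites in KO lists, against 7.25%, 7.63% and 7.71% in WT lists. Those longer than 500 bases were 35.8%, 33.8% and 33.8% in KO lists, against 30.5%, 29.1% and 28.7% in WT lists. Both ends of the length distribution thus stood apart in the same direction. The sites of all other parts were also longer in KO lists, with medians of 156, 151 and 151 bases against 141, 142 and 145 bases in WT lists. The depth of the libraries is unknown, and its part in site length was not tested.

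Compared with sites elsewhere on the transcript, stop codon sites were long. Within a list, the median stop codon site exceeded the median of all other sites by 167 to 215 bases, in 6 of 6 lists. The means over lists were 338 ± 23.4 bases at stop codons and 148 ± 5.92 bases elsewhere (SD, n = 6 lists; exact sign-flip permutation p = 0.03125, adjusted over 3 comparisons p = 0.0469). Against the single parts, stop codon sites were longer by 222 bases than sites in the coding sequence (CDS), by 172 bases than sites in the 5' UTR, by 115 bases than sites at the start codon and by 71.4 bases than sites in the 3' UTR. Each of these differences had the same sign in 6 of 6 lists (exact permutation p = 0.03125, the smallest that 6 lists allow, adjusted over 8 comparisons p = 0.0357). How the label was assigned is not given. If a site must reach the codon to be labelled, longer intervals enter the class more readily, and these tests cannot separate length from labelling. Start codon sites, with medians of 218 to 230 bases, were also longer than CDS sites, with 111 to 125 bases. The part of labelling in site length was not tested.

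Enrichment at stop codons was in the middle of the range of the parts. The median fold of stop codon sites was 8.01, 7.02 and 7.12 in KO lists 1, 2 and 3, and 7.53, 7.63 and 8.23 in WT lists 1, 2 and 3, and the genotypes overlapped. It differed from that of all other sites by -0.015 on average, between -0.14 and 0.3 in single lists (exact sign-flip permutation p = 0.844, adjusted p = 0.844). The average covers opposite differences. At a fold of at least 4 the average difference was -0.214 (exact permutation p = 0.0938). Stop codon sites had a lower median fold than start codon sites, by -1.52 on average and in 6 of 6 lists, and a higher one than CDS sites, by 0.295, and than 3' UTR sites, by 1.00, both in 6 of 6 lists (exact permutation p = 0.03125, adjusted p = 0.0357 for each). Against the 5' UTR the difference was -1.36, with 1 of 6 lists the other way (exact permutation p = 0.0625, adjusted p = 0.0625).

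**Figure D2:**
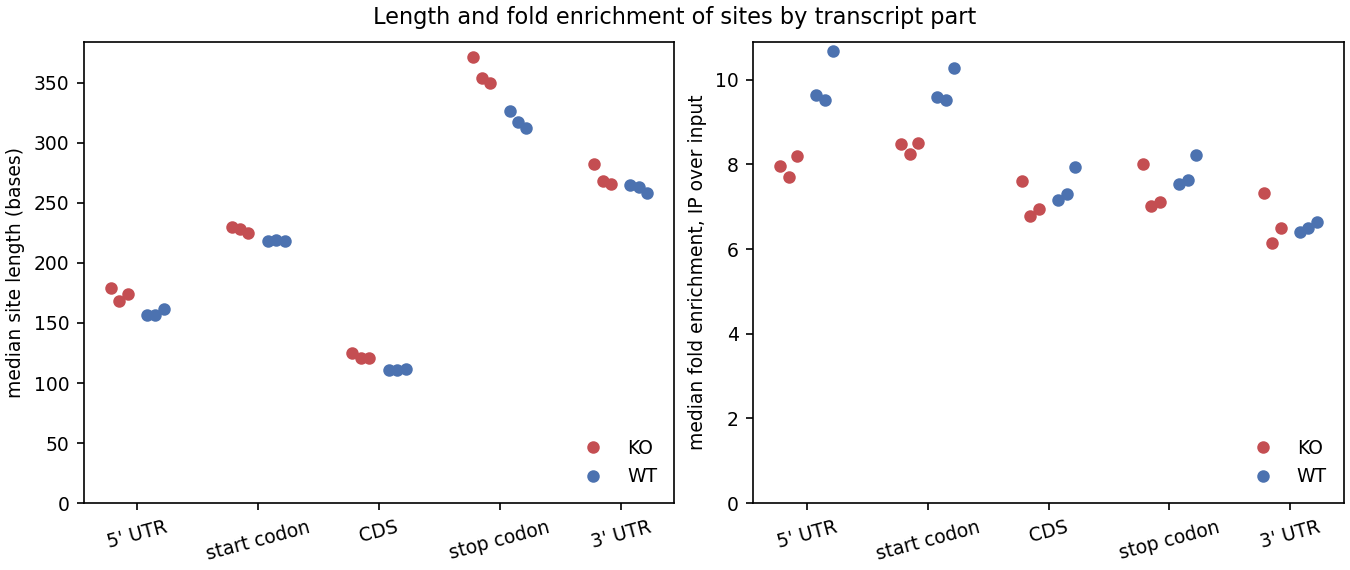
Median site length in bases (left) and median fold enrichment of IP over input (right) for the 5 transcript parts, with 1 point per list, KO in red and WT in blue. Stop codon sites are the longest in all 6 lists, with KO at 350 to 371 bases above WT at 312 to 326.5 bases, and their folds lie below those of start codons.

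Whether stop codon sites share their gene with other sites depended on the unit counted. Per site, another site of the same gene, in any part, was present in the same list for 66.9% ± 3.78 of stop codon sites, against 83.2% ± 2.39 of other sites (SD, n = 6 lists). The difference was -16.3 percentage points, negative in 6 of 6 lists (exact sign-flip permutation p = 0.03125, adjusted p = 0.0469). Most genes have a single stop codon site, whereas sites of other parts can recur on 1 gene and are then counted each time. With each gene counted once, a mean of 65.1% of genes with a stop codon site had another site (57.6% to 67.9% over the 6 lists), against 62.6% of genes with a site of any other part (57.2% to 65.2%). That difference was 2.47 percentage points, positive in 6 of 6 lists (exact sign-flip permutation p = 0.03125), so the sign turned against the other parts pooled. Against each part singly the share at stop codons was lower in 6 of 6 lists. The single parts had means of 66.9% in the 3' UTR, 71.7% at start codons, 72.4% in the 5' UTR and 76.3% in the CDS. Genes with a stop codon site had a median span of 25145 bases in GRCh38.p14 (4246 genes with a span), against 40280 bases for genes with sites in other parts only (5793 genes). Chromosome 19 held 9.49% to 9.83% of stop codon sites in KO lists and 9.72% to 10.3% in WT lists, against 7.19% to 7.39% of other sites in KO lists and 7.11% to 7.76% in WT lists.

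Although their number was alike, the stop codon sites of KO and WT cells were largely at different places. Sites were merged into regions where they overlapped by at least 1 base, which gave 4778 stop codon regions. Of these, 933 (19.5%) had a stop codon site in all 3 KO lists and no site of any part in a WT list, against a background of 20.9% among the regions of all parts. The reverse, all 3 WT lists and no KO list, held for 1044 regions (21.9%), against a background of 21.8%. A stop codon site was present in all 6 lists in 405 regions (8.48%, background 8.07%). All 3 shares were near those of the transcript as a whole.

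The overlap of lists showed the same division. The Jaccard index, the number of regions present in both lists over the number in either, averaged 0.696 at stop codons for pairs of lists of 1 genotype (0.609 to 0.750) and 0.173 for pairs across genotypes (0.155 to 0.193). Pairs across genotypes averaged 0.228 at start codons, 0.153 in the 5' UTR, 0.143 in the CDS and 0.0753 in the 3' UTR. Stop codons thus came next after start codons in this measure, which takes no account of the differing site lengths of the parts. Sites with exactly the same start and end were counted as well: pairs of KO lists shared 903 to 1165 of them at stop codons and pairs of WT lists 1173 to 1254, whereas a KO and a WT list shared 65 to 91. The pairs share lists, so these values are descriptions without a test, and genotype and any unlabelled batch of preparation cannot be told apart.

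**Figure D3:**
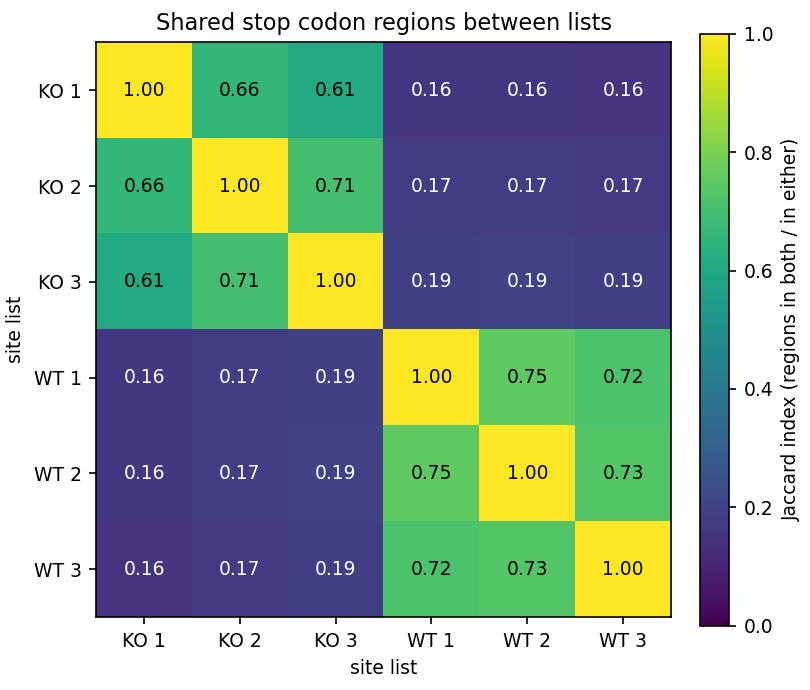
Jaccard index of stop codon regions for each pair of the 6 lists, with the lists on both axes and the index as colour and number. Pairs within a genotype lie between 0.609 and 0.750 and pairs of a KO and a WT list between 0.155 and 0.193.

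Regions with stop codon sites in 1 genotype alone were then searched for sites of any other label in the other genotype. Of 1575 regions with a stop codon site in all KO lists, 994 had none in any WT list. In 933 of the 994 no WT site of any part overlapped, while a WT site labelled CDS overlapped in 29, one labelled 3' UTR in 26 and one labelled start codon in 6. Of 1758 regions with a stop codon site in all WT lists, 1089 had none in any KO list, and 1044 of these were free of any KO site. The regions free of the other genotype were thus 59.2% of those in all KO lists and 59.4% of those in all WT lists, against 65.2% and 62.1% for regions of all parts.

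Among the 405 regions shared by all 6 lists, 395 held exactly 1 site in each list. Their median length was 509, 522 and 496 bases in KO lists 1, 2 and 3, against 446, 438 and 421 bases in WT lists 1, 2 and 3. All KO medians lay above all WT medians also over these same places, with means of 509 ± 13 and 435 ± 12.8 bases (SD, n = 3 each; difference 74 bases, exact permutation p = 0.1, the smallest possible). By region, the KO mean was longer in 238, shorter in 112 and equal in 45, and 44 regions had the same start and end in all 6 lists. Over 394 of these regions with a fold in every list, the 3 KO folds were all above the 3 WT folds in 34.0% and all below them in 37.1%, against 32.9% and 36.2% of shared regions of all 5 parts.

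By gene, 4347 of 10249 genes with any site (42.4%) had a stop codon site in at least 1 list. A stop codon site was found in all KO lists and no WT list for 870 genes (20.0%), in all WT lists and no KO list for 943 (21.7%), and in all 6 lists for 457 (10.5%). When a site of any part was counted, the shares over all genes were 14.8%, 11.8% and 38.8%. Many genes with a stop codon site in 1 genotype alone carried a site of another part in the other genotype. Of the 870 genes, 489 (56.2%) carried a site of another part in a WT list, most often in the CDS (351 genes) or at the start codon (192), and 381 carried none. Of the 943 genes, 643 (68.2%) carried a site of another part in a KO list, in the CDS for 455 and at the start codon for 290, and 300 carried none. The 457 genes were short, with a median span of 17715 bases against 27770 and 25334 bases for those with a stop codon site in KO or in WT lists alone. In 427 of the 457 genes a KO and a WT site overlapped, and in 30 the stop codon sites of the genotypes lay apart.

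The regions named next were the highest by fold within their lists among those at least 100 bases long. Coordinates are those of the files, and no source used here ties them to a build. Each printed start and end is that of 1 list, the one with the highest fold. The folds of the other lists belong to their own intervals, which can differ in length. At BCL2L2, for example, these were 715, 408 and 405 bases in WT lists 1, 2 and 3. The submitters' processing notes name hg38, but the coordinates are not those of GRCh38: 9.80% to 11.3% of stop codon sites lay in the GRCh38.p14 span of their gene, although over 99.7% lay on its chromosome. In each case the annotation of the lists places the interval over the stop codon of the named gene. Ranking by fold chose these regions, so their folds are given as a description and not as a test.

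The first set held a KO site and no WT site. PLAAT4 (RARRES3 in the files), a phospholipase and acyltransferase induced by retinoids, had folds of 726, 789 and 797 in KO lists 1, 2 and 3 on chromosome 11 from 63313665 to 63313922. FADS2, the delta-6 fatty acid desaturase, had folds of 799, 590 and 904 on chromosome 11 from 61633169 to 61633379. Neither gene had a WT site of any kind. SMAD7, which inhibits TGF-beta receptors, had KO folds of 607, 551 and 438 on chromosome 18 over 612, 671 and 671 bases. Its 3 KO intervals lay at the same place and no WT interval overlapped them.

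The other KO regions belonged to genes of varied function. KLC2, a light chain of the kinesin motor, had folds of 455, 486 and 529 on chromosome 11 from 66034152 to 66035135. The gene carried 2 sites in each WT list, labelled CDS and start codon. WDR11, a protein of vesicle trafficking, had folds of 380, 312 and 335 on chromosome 10 from 122665700 to 122665974, and in WT lists its sites lay in the CDS. LAGE3, a subunit of the KEOPS complex that modifies transfer RNA, had folds of 258, 521 and 329 on chromosome X from 153706265 to 153706750. CRHR2, a receptor for corticotropin-releasing hormone peptides, had folds of 303, 228 and 214 over 126 bases in each KO list. The last of these was the shortest interval of the group, and it was the same length in all 3 KO lists. TULP4, a tubby-like protein with another stop codon site in WT list 1 alone, had folds of 246, 286 and 327. The folds were 254, 187 and 212 at PRX, a protein of myelinating Schwann cells, and 213, 163 and 149 at HLA-DMA, which helps to load peptides on class II molecules.

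The second set held a WT site and no KO site. The highest fold of any stop codon site was 1906, 2578 and 2214 in KO lists 1, 2 and 3, against 11499, 7656 and 10498 in WT lists 1, 2 and 3. Each list has its own IP and input, and how folds were scaled between lists is not stated. IGHMBP2, a helicase, had folds of 1130, 1467 and 1454 in WT lists 1, 2 and 3 on chromosome 11 from 68707013 to 68707283. Its KO sites, 3, 4 and 4 per list, lay elsewhere in the gene. OGG1, the glycosylase that removes oxidised guanine from DNA, had folds of 1053, 1977 and 1563 on chromosome 3 from 9798454 to 9798792. Both genes thus carried called sites in KO lists, but none that overlapped this interval. Sites were matched by gene, so they may belong to different isoforms. EIF4E2, a cap-binding protein, had WT folds of 1505, 877 and 1296 on chromosome 2 from 233445740 to 233446015. WFS1, the endoplasmic reticulum protein wolframin, had WT folds of 863, 1554 and 1162 on chromosome 4 from 6303991 to 6304236. EIF4E2 and WFS1 also carried a stop codon label in KO lists, at a place that did not overlap.

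SMAD4, the SMAD shared by TGF-beta and BMP signalling, had WT folds of 333, 419 and 376 on chromosome 18 from 48603008 to 48603337. Its KO sites were labelled 5' UTR and start codon. BCL2L2, an inhibitor of apoptosis, had WT folds of 429, 527 and 539 on chromosome 14 from 23778025 to 23778429, and its KO sites lay in the 5' UTR. The other 4 were SLC67A1 (SLC22A18 in the files), a transporter, with folds of 541 to 712, the zinc finger gene ZNF316 with 470 to 920, SCAMP3, a membrane protein of secretory carriers, with 486 to 716, and DNM1, the membrane fission enzyme dynamin, with 357 to 462. All 4 carried sites of other parts in at least 1 KO list.

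Of the regions present in all 6 lists, POLR2A and ZNF574 ranked first. POLR2A, the large subunit of RNA polymerase II, had folds of 210, 191 and 362 in KO lists, against 525, 740 and 831 in WT lists, on chromosome 17. ZNF574 had folds of 85.6, 62.3 and 63.8 over 458 bases in every KO list, against 547, 993 and 480 over 880 to 922 bases in WT lists. For both genes every KO fold was below every WT fold. The region of ATP5IF1 (ATPIF1 in the files), the inhibitor of mitochondrial ATP synthase, had folds of 44.5, 42.2 and 58.5 in KO lists and 46.6 to 50.5 in WT lists. Its folds overlapped, but its interval was 271, 283 and 271 bases long in KO lists and 996 bases in each WT list.

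PLEC, the cytoskeletal linker plectin, had a 7249 base interval in all 6 lists, with folds of 44.2, 46.5 and 50.2 in KO lists against 141, 188 and 190 in WT lists. NFE2L1, a transcription factor of the proteasome response, had overlapping folds of 43.4, 52.5 and 49.2 in KO lists and 39.1, 50.7 and 49.3 in WT lists. NHERF2 (SLC9A3R2 in the files), a scaffold of kidney transporters, had folds of 40.9, 43.4 and 39.3 in KO lists against 134, 87.4 and 109 in WT lists. PLEC and NHERF2 thus stood lower in every KO list and NFE2L1 did not. MTRNR2L12 had folds of 55.2 to 137 in KO lists against 141 to 154 in WT lists, and MTRNR2L9 34.2 to 82.5 in KO lists against 76.8 to 94.0 in WT lists. Both are near copies of the mitochondrial 16S ribosomal RNA gene, so their reads cannot be assigned with certainty.

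**Figure D4:**
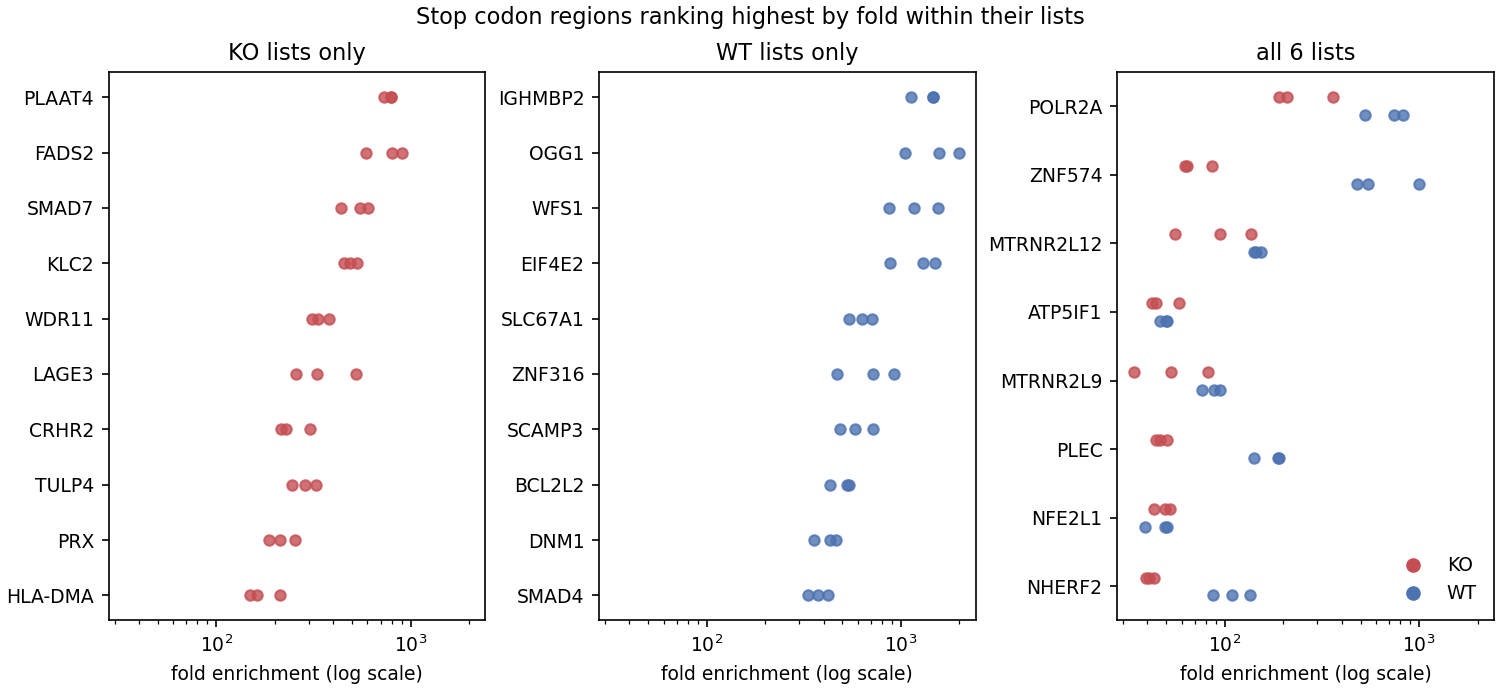
Fold enrichment (log scale) of the stop codon regions that ranked highest within their lists, found in KO lists alone (left), WT lists alone (middle) and all 6 lists (right), with 1 point per list. KO-only folds reach 904 at FADS2, WT-only folds 1977 at OGG1, and among shared regions ZNF574 has 62.3 to 85.6 in KO against 480 to 993 in WT.

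Named groups of genes were then described by how many members carried a stop codon site. Folds of members are given as 1 value per gene and list, and the KO and WT sites of a gene may lie at different places. For each, the shares to read against are those over all 4347 genes, 20.0% in KO lists alone, 21.7% in WT lists alone and 10.5% in all 6. Of 18 groups, 4 had more members in every KO list than in any WT list (22.2%) and 2 fewer (11.1%). The first were translation termination, polyadenylation, endoplasmic reticulum stress and chaperones, and other kidney and blood cells, the last with 1 gene. The second were matrix genes and the p53 response with immediate early genes. Over all 4347 genes, the number of KO lists minus the number of WT lists with a stop codon site had a median of 0. No group was tested for standing apart from other genes.

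Collagens and matrix genes had fewer stop codon sites in KO lists, 9, 9 and 11 members, against 17, 18 and 15 in WT lists. Of 24 members with such a site, 3 (12.5%) were found in KO lists alone, 8 (33.3%) in WT lists alone and 4 in all 6. The median number of KO minus WT lists was -2 for these genes. COL1A1, a chain of fibrillar collagen I, had WT folds of 4.14, 5.35 and 4.66 and no KO stop codon site. COL4A5, a basement membrane collagen chain, had WT folds of 1006, 745 and 894 at a site of 65 bases. FBLN1, LAMA3, NID1, MMP14 and the collagen-modifying enzymes P4HA2 and PLOD1 were the other WT members. LAMC1, a laminin chain, had KO folds of 20.7, 20.9 and 21.2, and with the proteoglycan VCAN it was among the members found in KO lists alone.

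Among matrix genes with a stop codon site in all 6 lists, TIMP1, an inhibitor of metalloproteinases, had folds of 5.66, 6.81 and 8.70 in KO lists against 84.6, 149 and 119 in WT lists. SERPINH1, the collagen chaperone, had folds of 4.11, 3.58 and 4.40 in KO lists against 28.0, 38.6 and 34.4 in WT lists. By gene, both lay lower in every KO list, though TIMP1 had 2 stop codon sites in WT lists 1 and 2 and 1 in every other list. FN1, fibronectin, had 3.97, 3.97 and 3.77 in KO lists against 4.21, 5.16 and 4.89 in WT lists, a smaller gap, and COL6A1 had 9.12, 18.4 and 16.8 in KO lists against 8.35, 6.33 and 7.75 in WT lists.

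TGF-beta, BMP and SMAD genes had 7, 7 and 6 members with a stop codon site in KO lists and 6, 4 and 5 in WT lists, which overlapped. Of 12 members, 5 were found in KO lists alone and 2 in WT lists alone, and none in all 6. SMAD3, which carries the TGF-beta signal, had KO folds of 22.8, 22.3 and 21.5, and INHBA, a subunit of activin, had KO folds of 61.6, 57.8 and 51.1. The receptor ACVR1, the ubiquitin ligase SMURF1 and SMAD7 completed the KO members. SMAD4 and SMAD6, an inhibitory SMAD, were the WT members. TGFB1, the ligand, had a stop codon site in KO lists 2 and 3, with folds of 35.7 and 32.4, and in all WT lists, with folds of 8.60, 7.58 and 12.2.

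Genes of endoplasmic reticulum stress and chaperones had more stop codon sites in KO lists, 11, 11 and 14 members, against 7, 9 and 7 in WT lists. Of 19 members, 7 (36.8%) were found in KO lists alone and 3 (15.8%) in WT lists alone, with a median of 1 for KO minus WT lists. A broader annotated pathway, protein processing in the endoplasmic reticulum, divided the other way, with 11 of 52 genes (21.2%) in KO lists alone and 14 (26.9%) in WT lists alone. The KO members included the membrane chaperone calnexin (CANX) and its soluble relative CALR, ATF6, HSPH1, BAG3 and the co-chaperone DNAJB11, which had folds of 13.9, 10.4 and 14.2. HSPA1B was counted with them, but it is nearly identical to HSPA1A, which had a site in all 6 lists, so the pair is uncertain. The WT members were not the same kind of protein throughout. ERN1, the stress sensor IRE1, had WT folds of 356, 348 and 393, ATF4, a stress-induced transcription factor, 62.6, 44.3 and 64.7, and HSPB1, a small heat shock protein, 21.5 to 27.4.

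Genes that act at the stop codon themselves were also examined. Of 22 termination genes with any site, 9 (40.9%) had a stop codon site, and of 15 selenoprotein and recoding genes 8 (53.3%), against 42.4% of all genes. Translation termination and stop codon surveillance had 4, 7 and 5 members with a stop codon site in KO lists and 1, 3 and 2 in WT lists, of 24 listed, a separation that was lost among sites of at least 100 bases. SMG6, the endonuclease of nonsense-mediated decay, had KO folds of 5.54, 4.50 and 5.47, and JMJD4, which hydroxylates a release factor, 30.0, 18.9 and 24.1, and neither had a WT stop codon site. HBS1L, a ribosome rescue factor, had folds of 63.5, 55.2 and 52.0 in KO lists against 2.48, 2.11 and 2.51 in WT lists. Its highest fold, in KO list 1, was at a site of 57 bases, and its WT folds lay near the lower limit of 2. These folds are by gene and not by matched place. Selenoprotein genes recode a stop codon. Together with the factors of this recoding, 1, 2 and 3 members had a site in KO lists and 5, 3 and 5 in WT lists. EEFSEC, the elongation factor for selenocysteine, had KO folds of 132, 72.1 and 86.0, while MSRB1, a methionine sulfoxide reductase, had WT folds of 11.8, 11.8 and 12.4.

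Factors of polyadenylation had 5, 5 and 7 members in KO lists and 4, 3 and 4 in WT lists, with PAPOLA (the poly(A) polymerase), CPSF7 and PABPN1 in KO lists alone and CLP1 in WT lists alone. Their difference of 2 members fell to 0.333 at a fold of at least 4, where the lists overlapped. Cytosolic ribosomal proteins had 11, 10 and 13 members in KO lists and 11, 10 and 10 in WT lists, of 80 listed. Of 18 members with a site, 5 (27.8%) were found in KO lists alone, RPL14, RPL17, RPL26, RPS3 and RPS4X, 3 (16.7%) in WT lists alone, RPL37, RPS14 and RPS19, and 5 (27.8%) in all 6. Among translation factors, EIF4E, the cap-binding protein, had KO folds of 14.8, 8.33 and 8.02, and EEF2, the translocase of elongation, had WT folds of 28.4, 20.6 and 27.4. EIF3A, a subunit of the initiation factor eIF3, had a site in all 6 lists, with folds of 43.8, 41.8 and 47.9 in KO lists against 3.58, 3.27 and 3.71 in WT lists. It had 2 stop codon sites in each KO list and 1 in each WT list, so these folds are by gene.

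Genes of the p53 response and immediate early genes had 8, 5 and 9 members in KO lists and 12, 10 and 12 in WT lists, a separation that was lost at a score of at least 100. FOS, an AP-1 subunit, had WT folds of 10.7, 14.6 and 11.5 and FOSL2, its relative, 87.9, 119 and 119. FOSL1 had a site in all 6 lists with folds of 45.1, 44.8 and 52.3 in KO lists against 7.25, 6.02 and 7.58 in WT lists, and ATF3 was found in KO lists alone. These AP-1 genes therefore lay in all 3 classes. RNA modification genes, 9, 10 and 11 members in KO lists and 11, 12 and 11 in WT lists, included the pseudouridine synthases TRUB1, TRUB2 and PUS3 in KO lists alone. The m6A demethylase ALKBH5, the m6A writer subunit VIRMA and the pseudouridine synthase DKC1 were among the 5 in WT lists alone.

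The remaining groups overlapped between genotypes. Glycolysis genes had 6, 8 and 8 members in KO lists and 7, 7 and 6 in WT lists, with PDK1, a kinase that inhibits pyruvate dehydrogenase, in KO lists alone and the isomerase GPI in WT lists alone. Respiratory chain and ATP synthase genes had 5, 5 and 7 members in KO lists and 4, 5 and 6 in WT lists. Inflammation genes had 9, 6 and 9 members in KO lists and 7, 9 and 6 in WT lists, with the cytokine CSF2 in KO lists alone and the cytokines IL6 and LIF in WT lists alone. Aminoacyl-tRNA synthetases, which charge transfer RNA, had 1, 4 and 5 members in KO lists and 7, 5 and 5 in WT lists. Genes of epithelial and mesenchymal state had 3, 6 and 5 members in KO lists and 5, 4 and 4 in WT lists, and histones 4, 6 and 6 in KO lists and 3, 4 and 3 in WT lists. None of these groups had all KO lists on 1 side of all WT lists. Proximal tubule genes had 4 members in each KO list and 4, 5 and 5 in WT lists. Of these, PAX8, ANPEP and DPP4 were found in KO lists alone, and CDH16 and EZR were among those in WT lists alone. MCAM was the single gene of other kidney and blood cells with a stop codon site, and it was present in all KO lists and no WT list.

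**Figure D5:**
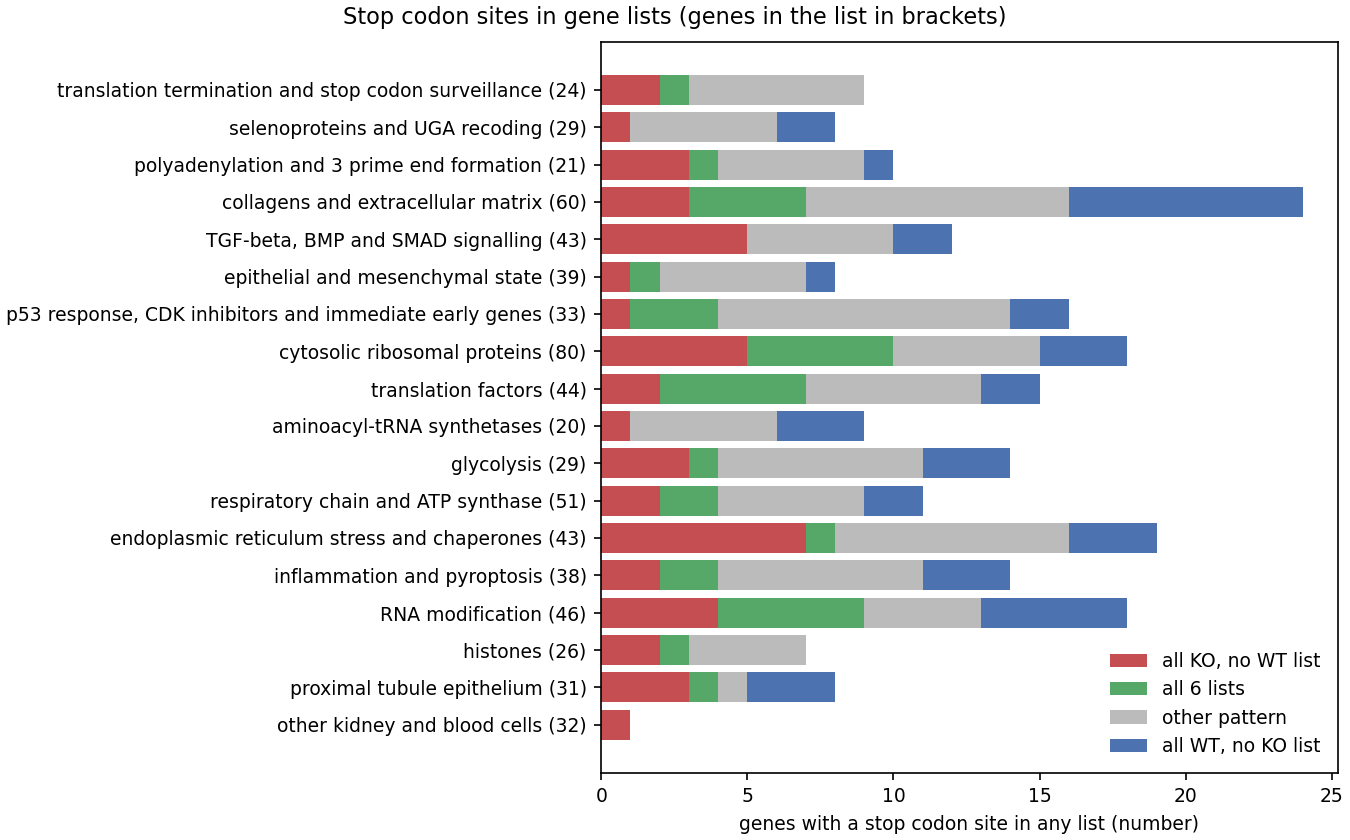
Number of genes with a stop codon site in each gene group, divided into genes found in all KO and no WT lists (red), all 6 lists (green), another pattern (grey) and all WT and no KO lists (blue). Matrix genes show 3 KO against 8 WT genes of 24, and genes of endoplasmic reticulum stress and chaperones 7 KO against 3 WT genes of 19.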

How the data were processed

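The 6 site lists come from ac4C IP and input libraries of KO and WT HK-2 cells. Per the file headers the authors called sites with MACS, and the deposited score is 10 times the -log10 of its p-value. The deposited fold enrichment is a ratio of IP over input per site, and the deposited false discovery rate is in percent. Cutadapt 1.9.3, HISAT2 2.0.4 and hg38 appear, without roles, in the submitters' processing notes. The MACS version and the annotation step are not given in the sources used here. In KO list 1, coordinate and gene columns were rejoined on equal score, length and chromosome, and 348 tied rows were named from identical coordinates in another KO list; 126 rows kept no gene. Across all lists 17 empty lines were left out. Symbols follow the GRCh38.p14 RefSeq table. Starts are printed 1-based.

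The list was the unit. Genotypes were compared by two-sided exact permutation of lists, transcript parts by exact sign flips within lists, with Benjamini-Hochberg adjustment and a threshold of 0.05 (Python 3.11.15, numpy 2.4.6, pandas 2.3.3). The tests were tested on simulated data. Scores and folds served to rank and filter sites of 1 list. Depth is unknown, so no interval is given. Regions were ranked by their lowest within-list percentile of fold, and the first 10 KO, 10 WT and 8 shared were named, with members of the gene groups. Alternatives were a minimum fold, score or length, equal list lengths, omission of each list, genes counted once and pairing by replicate number. The members, gene groups and rules were chosen with earlier results of these data known.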

Additional observations from a re-analysis of the deposited data

How the results depend on the processing

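The KO minus WT difference in stop codon sites, -12.7, was -40.7 at a fold of at least 4, -79 at a score of at least 100, -51.3 at equal list lengths and 52.3 when sites under 100 bases were dropped, and ran from -183 to 182 when each list was left out, with reversed signs without KO list 1 (182), WT list 1 (35.7) or WT list 2 (21.2). The difference in genes, 0.667, was -30.3 at a fold of at least 4, -68.3 at a score of at least 100, -44 at equal list lengths and -6.67 when the tied rows of KO list 1 were left without a gene, an alternative chosen after seeing the data. It ran from -159 (without KO list 3) to 186 over omitted lists, with -24.8 without KO list 2 and -76.5 without WT list 3. The share differed by -0.429 to -0.0962 and median length by 33.5 to 44 bases over omitted lists. Stop codon minus other sites gave 186 to 195.5 bases, a fold difference of -0.078 to 0.01 (0.01 without KO list 3, 0.004 without WT list 3; -0.214 at a fold of at least 4 and -0.172 among sites of at least 100 bases) and -16.7 to -15.7 percentage points in the share with another site. With 5 lists the smallest exact p is 0.0625, so these could not pass. The share with another site was 2.47 points higher, not lower, at stop codons than in the other parts pooled when each gene was counted once. This alternative was also chosen after seeing the data. Against each single part the share at stop codons stayed lower. The Jaccard difference ran from 0.503 to 0.552. Over omitted lists, regions numbered 952 to 1208 for KO alone, 1055 to 1219 for WT alone and 418 to 504 for all lists, and genes 887 to 1129, 955 to 1099 and 472 to 571, since fewer lists have to hold a site. Of 107 named genes found in 1 genotype alone, 85 kept this at a fold of at least 4, 93 at a score of at least 100, 101 at a length of at least 100 bases and 89 at equal list lengths. These settings only remove sites, so no gene could have reversed. Of the 6 gene groups whose KO and WT lists did not overlap, matrix genes (-6 to -5 members), endoplasmic reticulum stress and chaperones (3 to 5.33) and other kidney and blood cells (1) stayed apart in all 4 of these settings. Termination (2.67 to 4), polyadenylation (0.333 to 2.67) and p53 response genes (-4 to -3) overlapped in 1 setting each. Selenoprotein and recoding genes, TGF-beta genes, translation factors and respiratory chain genes stood apart in 3, 2, 1 and 1 settings though not in the full lists.

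Pairing lists by replicate number gave exact paired p-values of 0.75 for sites (-12.7), 0.5 for the share, 1 for genes and 0.25 for length (39.8 bases), where 3 pairs allow no less than 0.25. Same-numbered lists did not deviate together over 394 shared regions (correlations of -0.0407, 0.0105 and -0.0543), so the numbers were not taken to pair the lists. Site blocks by exon, protein length and the residues before the stop codon were planned and not run, since the tables used here hold no exon blocks or proteins. Unknown depth and high false discovery rates limit what single sites show.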

Other observations

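Annotated pathways, picked after their values were seen from those with at least 40 stop codon genes, divided in different ways. The shares to read against are 20.0% for KO lists alone and 21.7% for WT lists alone over all genes with a stop codon site. Apoptosis had 45 genes with a stop codon site, of which 4 (8.89%) were found in KO lists alone and 12 (26.7%) in WT lists alone. The KO genes were BCL2L1, an inhibitor of apoptosis, BIRC2, IKBKG and ITPR2. The WT genes were the pro-apoptotic BAD, BAK1, BCL2L11 and DIABLO, CFLAR, which holds back caspase-8, and ATF4, ERN1, FOS, MAP3K14, PARP3, TUBA1A and TUBA8. A further 7 (15.6%, against 10.5% of all genes with a stop codon site) had one in all 6 lists, among them BIRC5 and TRADD. BCL2L2, an inhibitor of apoptosis outside this annotated set, was also found in WT lists alone. The cell cycle, with 47 genes, divided evenly, 11 in KO lists alone, among them CHEK1, PCNA and CDC25B, and 12 in WT lists alone, among them CCND1, CDC20 and WEE1.

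The longest stop codon sites lay on few genes. FLG, filaggrin, had a site of 7351 bases in KO list 1 and of 2212 and 2213 bases in KO lists 2 and 3, with folds of 249, 39.8 and 38.3, and no WT site there. SCD, the stearoyl-CoA desaturase, had a site of 3103 bases in each KO list, with folds of 11.6, 10.5 and 10.6, and none in WT lists. IGF2, a growth factor, had sites of 3912, 4087 and 4087 bases in WT lists 1, 2 and 3, with folds of 7.06, 6.34 and 7.81, and none in KO lists. BCL9L, a Wnt co-activator, had sites of 3255, 3255 and 3254 bases in KO lists against 665, 848 and 665 bases in WT lists.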
